A study of Mus musculus with 9 samples.

Results

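The clustered protocadherins are 3 neighbouring families of neuronal adhesion genes on mouse chromosome 18, and their levels were followed in cortex after an experimental stroke. The members were all genes of the deposited tables whose symbol begins with Pcdha, Pcdhb or Pcdhg. This gave 58 gene IDs with 89 transcripts, out of 52550 genes. The alpha cluster held 14 IDs at chr18:36930184-37187661, the beta cluster 22 at chr18:37264938-37524479 and the gamma cluster 22 at chr18:37661793-37841873 (GRCm38/mm10). The symbol Pcdha11 belonged to 2 IDs, ENSMUSG00000102206 and ENSMUSG00000007440, which are kept apart below.

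The study asked what the enhancer RNA eRNA_06347 does in the brain after stroke. All mice were male C57BL/6N animals aged 9 to 12 weeks. Knockdown mice received locked nucleic acid antisense oligos against eRNA_06347 through the lateral ventricles, and control oligo mice received a negative control oligo. Both groups then had the middle cerebral artery occluded for 1 h, with reperfusion for 6 h, and the infarcted cortex of the same side was taken. Sham mice had the neck incision with no filament, and the labels name no oligo for them. Each group had 3 libraries, numbered 2, 3 and 4 for knockdown and 1, 2 and 3 for control oligo and sham. Cortex is a mixture of neurons, glia and vessel cells, and each library holds RNA of all of them. The level of eRNA_06347 itself was not analysed here.

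A protocadherin on the surface of a neuron binds the same isoform on a facing membrane, and the set of isoforms a neuron makes lets its branches tell themselves from others. Each alpha and gamma gene has its own promoter and its own large first exon, here called the variable exon, which encodes the outer and membrane-spanning parts. That exon is spliced to 3 constant exons shared by the whole cluster, which encode a common inner tail, whereas beta genes consist of 1 coding exon and have no shared tail. Most promoters are chosen at random in each neuron through CTCF and cohesin, while the 5 C-type genes (Pcdhac1, Pcdhac2, Pcdhgc3, Pcdhgc4 and Pcdhgc5) at the ends of the alpha and gamma clusters are used in a more uniform way.

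The unit was TPM (the length-normalised share a transcript takes of its library), summed over the transcripts of a gene. The occlusion libraries held an estimated 34.9 to 39.2 M aligned reads of 141 nt, and the sham libraries, which the laboratory had made for earlier work, 58.4 to 62.4 M reads of 51 nt. Small structural RNAs took 0.191% to 0.351% of TPM in the occlusion libraries and 46.3% to 52.1% in sham, and mitochondrial genes 22.6% to 28.9% in the occlusion libraries and 0.277% to 0.577% in sham. Data set, library type, surgery and oligo therefore cannot be told apart in any comparison with sham. The median gene was 0.56 higher on the log2 scale in control oligo than in sham and 0.61 higher in knockdown than in sham, so changes against sham are also given after median-ratio scaling, which brings the first of these medians to 0.01. All 8 neuronal markers examined, among them Snap25, Rbfox3, Slc17a7 and Gad1, were expressed. They summed to 3327 to 5054 TPM in knockdown, 4043 to 4597 TPM in control oligo and 2819 to 3319 TPM in sham libraries. In this tissue RNA, fewer neurons and less RNA per neuron cannot be told apart.

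Members were low and partly alike. The median beta gene had an estimated 70.5 to 101 reads in an occlusion library and 437 to 471 in a sham library. The median alpha gene had 60.5 to 100.1 reads and 366.5 to 381 reads in the same libraries. Of the stretches of 51 nt in a member's variable exon, a median of 14.0% in alpha, 3.98% in beta and 0.712% in gamma occurred also in another member. For stretches of 141 nt the medians were 1.36%, 0% and 0%, so stretches of the sham read length were more often alike between members. These are stretches of annotated transcripts, and the reads themselves were not examined. The deposited quantification used no strand option, and 13 members are overlapped by genes of the other strand, by up to 100% of the variable exon for Pcdhga10 and 46.1% for Pcdhgc3. These overlapping genes had at most 3.16 TPM in any library, which is not low beside the members. That was Gm26672, which covers Pcdhga10 and 52.4% of the variable exon of Pcdhga11. It had 2.45, 3.16 and 1.48 TPM in sham, where Pcdhga10 had 1.45, 1.27 and 0.760 TPM. In occlusion libraries Gm26672 had 0.276 to 1.47 TPM. How reads were split within such pairs was not tested. On the same strand, other annotated genes overlap 4 alpha members, Gm42416 over 83.0% of the variable exon of Pcdha4 and Gm37388 over 13.7% of that of Pcdha7. Both are listed at 0 in all libraries.

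The summed clusters differed between occlusion and sham, and hardly between knockdown and control oligo. The alpha genes summed to 22.2, 20.4 and 15.5 TPM in knockdown, 21.1, 20.8 and 17.2 TPM in control oligo and 34.0, 31.8 and 31.1 TPM in sham libraries. The beta genes summed to 32.2, 27.4 and 30.8 TPM in knockdown, 26.8, 28.3 and 25.8 TPM in control oligo and 65.4, 65.1 and 64.8 TPM in sham. Both clusters were lower in each of the 6 occlusion libraries than in any sham library. The gamma genes went the other way, with 214, 196 and 192 TPM in knockdown, 206, 197 and 208 TPM in control oligo and 112, 112 and 89.4 TPM in sham. The log2 ratio of the group means, knockdown over control oligo, was −0.02 for alpha, 0.16 for beta and −0.02 for gamma. For control oligo over sham it was −0.71, −1.27 and 0.96 in the same order, and for knockdown over sham −0.74, −1.11 and 0.94.

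**Figure D1:**
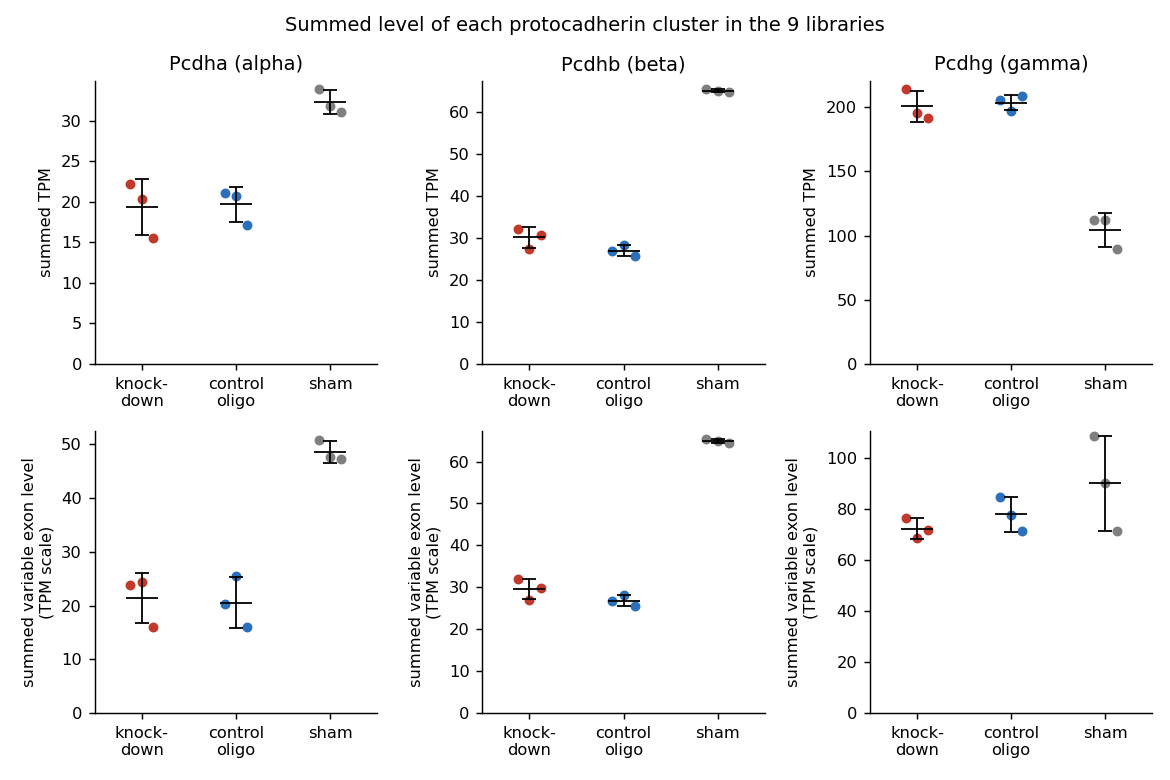
Summed level of each cluster in the 9 libraries, as TPM of whole transcripts (upper row) and as the level of the variable exons on the TPM scale (lower row); points are libraries, bars the mean and SD of 3. Alpha and beta lie lower in all occlusion libraries than in sham in both rows, whereas gamma lies above sham by TPM (192 to 214 against 89.4 to 112) and at 68.6 to 84.7 against 71.2 to 109 by variable exons.

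Since the constant exons belong to a whole cluster, the deposited exon coverage was also read for the variable exons alone. The variable exon level of a gene is its coverage upstream of the constant exons, put on the TPM scale of the library. By this level the alpha genes summed to 23.8, 24.4 and 16.1 in knockdown, 20.2, 25.4 and 15.9 in control oligo and 50.7, 47.6 and 47.1 in sham libraries. The gamma genes summed to 76.5, 68.6 and 71.9 in knockdown, 84.7, 77.6 and 71.2 in control oligo and 109, 90.2 and 71.2 in sham. The gamma groups now overlapped, and the log2 ratio to sham was −0.21 for control oligo and −0.32 for knockdown, opposite in sign to the ratios of whole transcripts. For alpha it was −1.24 and −1.18, a deeper fall than by TPM. At alpha constant exons 1, 2 and 3 the log2 ratio to sham was −0.60, −0.79 and 0.34 for control oligo. For knockdown it was −0.46, −0.77 and 0.19 there, so the alpha fall depended on the exon that was read.

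The first comparison asked what the knockdown changed within ischaemic cortex, and no protocadherin passed the test there. Of the 58 members, 50 had at least 1 TPM in at least 3 libraries and entered the limma fit on log2(TPM + 1), with Benjamini-Hochberg adjustment over 17080 genes. The 8 others were Pcdha1, Pcdha3, Pcdha8, Pcdha11 ENSMUSG00000007440, Pcdhb1, Pcdhb6, Pcdhb21 and Pcdhga8. At an adjusted p under 0.05, 0 of 50 members were called, where 0.0117% of all genes were, 2 in number. At an unadjusted p under 0.05 there were 2 members, against 1.88% of all genes. The median log2 change was 0.07 for the members and 0.06 for all genes. The knockdown libraries lay entirely above the control oligo libraries for 4 members (3.6% of all genes) and entirely below for 1 (1.8% of all genes).

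The member entirely below was Pcdhgc3, a C-type gene whose tail-bearing protein takes part in dendrite branching in mouse cortex. It had 1.48, 1.92 and 2.18 TPM in knockdown libraries, against 15.8, 2.49 and 19.6 TPM in control oligo libraries. Control oligo libraries 1 and 3 stood far above the other 4, and control oligo library 2 lay close to knockdown. The log2 change was −1.90 with a 95% interval of −3.47 to −0.34, and limma's p of 0.0243 became an adjusted p of 1. By variable exon the knockdown libraries also lay below control oligo, and by the first shared exon they overlapped it, as given with the C-type genes below.

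Among the members higher with knockdown, Pcdhb10 had 2.22, 2.01 and 1.23 TPM in knockdown libraries, against 1.13, 1.02 and 0.894 TPM in control oligo libraries. The groups did not overlap, with knockdown library 4 close to the control oligo libraries, and the log2 change was 0.47 ± 0.18 (SE; unadjusted limma p 0.0362, adjusted p 1). Pcdhb16 had 0.879, 0.936 and 1.43 TPM in knockdown, against 0.792, 0.826 and 0.600 TPM in control oligo. Pcdhb2 had 0.629, 0.464 and 0.460 TPM in knockdown, against 0.284, 0.371 and 0.351 TPM in control oligo. Pcdhga7 had 3.34, 2.48 and 2.79 TPM in knockdown, against 2.20, 2.47 and 1.68 TPM in control oligo. These 3 members were separated by small gaps, for Pcdhga7 between 2.48 and 2.47 TPM, and their log2 changes of 0.25, 0.18 and 0.31 had limma intervals that include 0.

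For most members the design bounds the effect of the knockdown loosely. The 95% interval of the log2 change ran from −0.23 to 0.58 for Pcdhb17, from −0.34 to 0.42 for Pcdhb20 and from −0.35 to 0.50 for Pcdhgc5. It was far wider for gamma genes whose TPM was high in some libraries only, at −7.52 to 3.16 for Pcdhgb8 and −3.94 to 3.41 for Pcdhgb1. No member was called under any alternative processing tried, the variable exon level included.

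**Figure D2:**
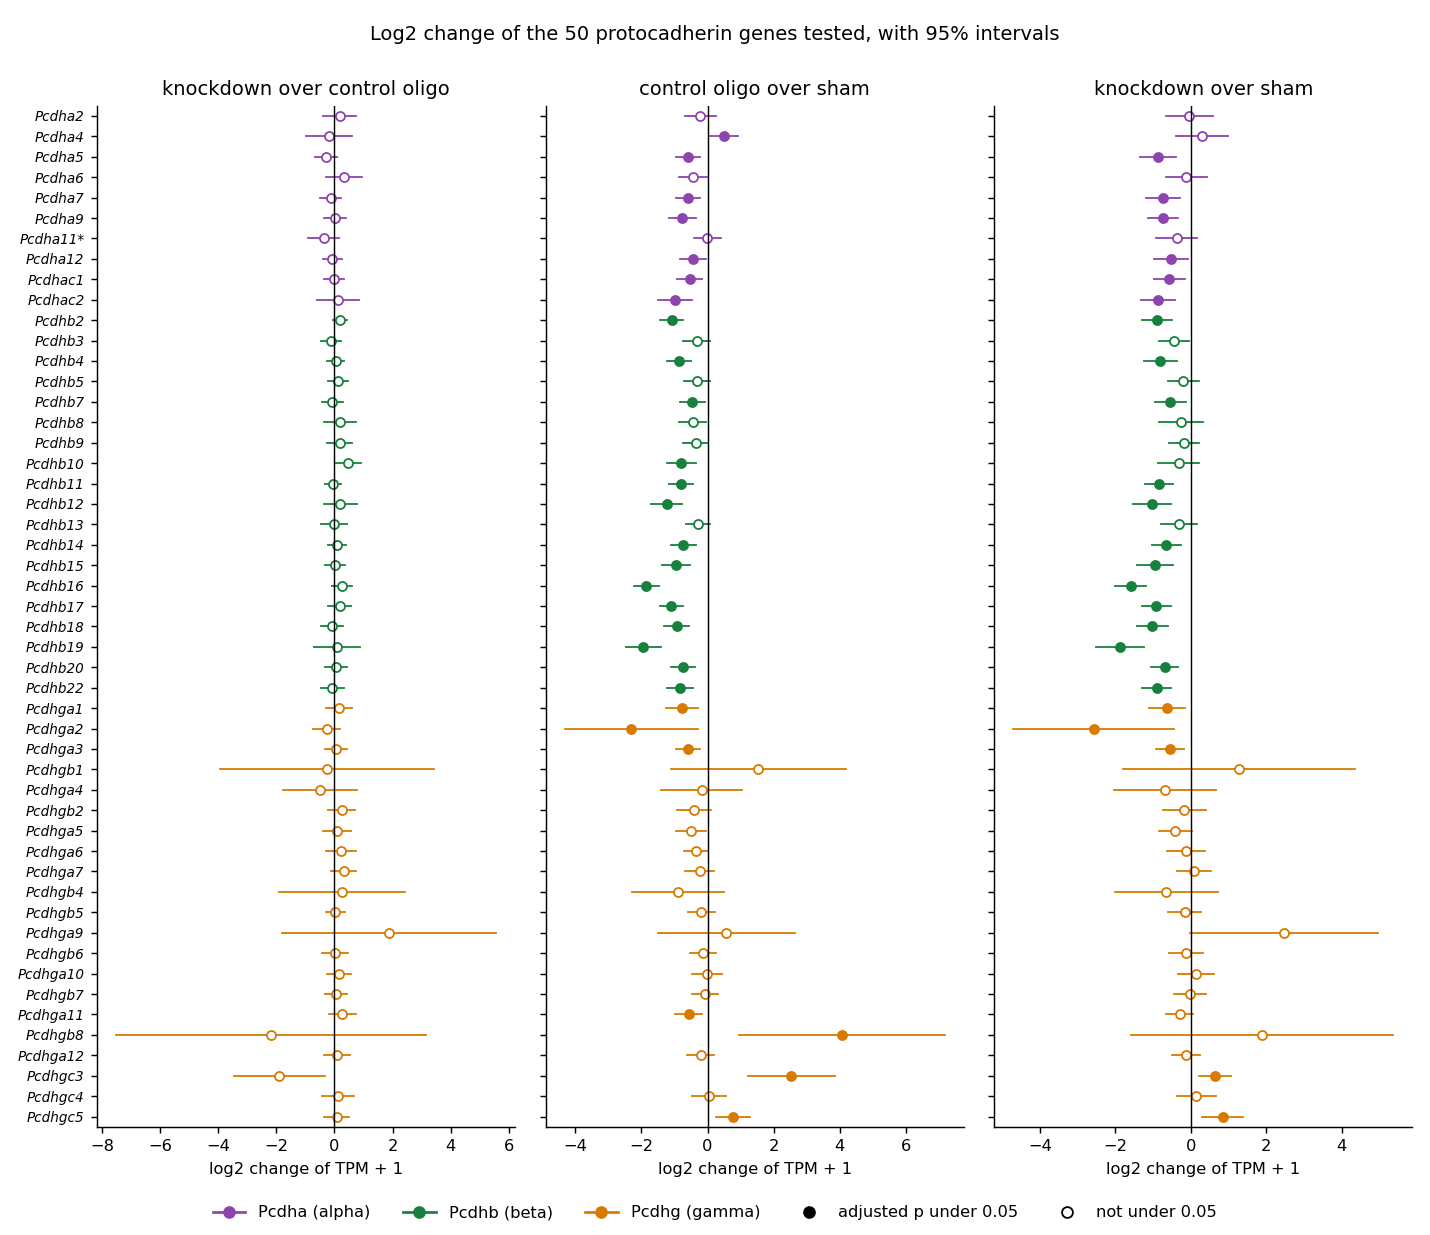
Log2 change of the 50 tested members with 95% limma intervals, on log2(TPM + 1), for knockdown over control oligo, control oligo over sham and knockdown over sham; filled points have an adjusted p under 0.05 and Pcdha11* is ENSMUSG00000102206. No point is filled on the left, and against sham all 19 beta genes lie below 0 in both panels.

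Against sham, falls outnumbered rises among the members while rises outnumbered falls among all genes. With control oligo, 24 of 50 members were called lower and 4 higher, where 12.8% of all genes were called lower and 52.6% higher. With knockdown, 22 were called lower and 2 higher, where 12.5% of all genes were called lower and 52.7% higher. The median log2 change of the members was −0.46 with control oligo and −0.43 with knockdown. After median-ratio scaling, 40 members were called lower and 1 higher with control oligo, where 29.2% of all genes were lower and 26.1% higher. With knockdown, 36 were then lower and 0 higher, where 27.1% of all genes were lower and 22.7% higher. Both comparisons use the same 3 sham libraries, so their likeness is no independent evidence. Pcdha5, Pcdha7, Pcdha9, Pcdhac1, Pcdhb2, Pcdhb4 and Pcdhb15 reached 1 TPM in sham libraries only, and Pcdhgb8 and Pcdhgc3 in occlusion libraries only. These members entered the test through the side where they are high, so the filter favoured the direction of their calls.

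In the alpha cluster, 6 of 10 tested genes were called lower in each comparison with sham. The shares of all genes called lower were 12.8% with control oligo and 12.5% with knockdown. Of the 6, Pcdha5, Pcdha7, Pcdha9 and Pcdhac1 reached 1 TPM in the sham libraries only and entered the test through them. The filter therefore favoured falls in this count. Pcdha4 was called higher with control oligo, where 52.6% of all genes were. Pcdha5 had 0.497, 0.894 and 0.307 TPM in knockdown, 0.860, 0.805 and 0.969 TPM in control oligo and 1.89, 2.01 and 1.59 TPM in sham libraries. Pcdha9 had 0.949, 0.645 and 0.634 TPM in knockdown, 0.962, 0.759 and 0.429 TPM in control oligo and 1.81, 1.86 and 2.01 TPM in sham. In both genes all 6 occlusion libraries lay below all sham libraries. The log2 change of Pcdha5 was −0.59 ± 0.16 with control oligo and −0.87 ± 0.20 with knockdown (SE; limma adjusted p 0.0108 and 0.00659). For Pcdha9 it was −0.77 ± 0.18 and −0.74 ± 0.17 (adjusted p 0.00512 and 0.00688). Pcdha7 and Pcdha12 were called lower in both comparisons too.

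Other alpha genes did not separate by TPM. Pcdha6 had 3.72, 2.08 and 1.77 TPM in knockdown, 2.37, 1.42 and 1.53 TPM in control oligo and 2.73, 2.79 and 2.62 TPM in sham libraries. Pcdha11 ENSMUSG00000102206 had 1.90, 1.17 and 2.68 TPM in knockdown, 2.54, 2.82 and 2.72 TPM in control oligo and 3.23, 2.24 and 2.70 TPM in sham. Pcdha2 had 1.66, 1.98 and 0.703 TPM in knockdown, 1.37, 0.940 and 1.01 TPM in control oligo and 1.17, 2.11 and 1.15 TPM in sham. Occlusion and sham libraries overlapped in these 3 genes, except that the control oligo libraries of Pcdha6 lay below sham. By the variable exon the same genes separated. Pcdha6 had 1.24, 0.607 and 0.866 in knockdown, 0.715, 0.924 and 0.536 in control oligo and 1.98, 2.73 and 1.93 in sham. Pcdha2 had 0.346, 0.676 and 0.266 in knockdown, 0.432, 0.390 and 0.398 in control oligo and 1.36, 1.17 and 1.52 in sham. With this readout all 11 alpha genes tested were called lower in both comparisons with sham. Which genes entered depended on sham. Pcdha2 and both IDs of Pcdha11 reached a level of 1 in the sham libraries only. Pcdha3, Pcdha6 and Pcdha7 also needed the sham libraries to enter, and Pcdha4 did not enter. The filter therefore favoured falls in this count. Only alpha and gamma members were read by variable exon in that fit, and all other genes by TPM. The 12.8% and 12.6% of all genes called lower with control oligo and with knockdown are therefore no like-for-like share. Coverage of first exons relative to last exons was lower after occlusion in other genes too, as given below.

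Pcdha4 was the alpha gene called higher. It had 0.571, 2.62 and 1.11 TPM in knockdown, 2.24, 1.18 and 1.51 TPM in control oligo and 0.909, 0.831 and 0.856 TPM in sham libraries. The control oligo libraries lay above sham (log2 change 0.48 ± 0.19, limma adjusted p 0.0494), and the knockdown libraries on both sides of it. The call was lost after median-ratio scaling (log2 0.13) and without any 1 of control oligo libraries 1 and 3 and the 3 sham libraries (adjusted p 0.0650 to 0.144). By its variable exon Pcdha4 did not reach the level needed for the test, with 0.233, 2.89 and 0.829 in knockdown, 1.42, 0.390 and 0.816 in control oligo and 0.756, 0.777 and 0.636 in sham.

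Beta genes share no constant exon, though some are alike in stretches, and the cluster fell against sham. With control oligo 14 of 19 tested genes were called lower and with knockdown 13, where 12.8% and 12.5% of all genes were. None was called higher, where 52.6% and 52.7% of all genes were. In all 19 the control oligo libraries lay entirely below the sham libraries, as they did for 14.2% of all genes. Of the 19, Pcdhb2, Pcdhb4 and Pcdhb15 reached 1 TPM in the sham libraries only and entered the test through them. They were called lower in both comparisons, so the filter favoured falls in these counts. After median-ratio scaling 19 were called lower with control oligo and 18 with knockdown, where 29.2% and 27.1% of all genes were.

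Pcdhb16 had 0.879, 0.936 and 1.43 TPM in knockdown, 0.792, 0.826 and 0.600 TPM in control oligo and 5.33, 5.37 and 5.08 TPM in sham libraries. All 6 occlusion libraries stood far below sham, with log2 changes of −1.85 ± 0.16 for control oligo and −1.60 ± 0.18 for knockdown (SE; limma adjusted p 3.61e-05 and 0.000205). Pcdhb19 had 0.678, 0 and 1.07 TPM in knockdown, 0, 0.760 and 0.673 TPM in control oligo and 4.53, 4.58 and 4.45 TPM in sham. Knockdown library 3 and control oligo library 1 list it at 0, and no occlusion library came near the sham level. The log2 change was −1.95 with control oligo and −1.87 with knockdown (adjusted p 0.000187 and 0.000714).

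The most abundant beta genes moved the same way by less. Pcdhb17 had 3.25, 2.56 and 3.40 TPM in knockdown, 2.72, 2.54 and 2.50 TPM in control oligo and 6.97, 6.31 and 6.68 TPM in sham libraries. Pcdhb20 had 3.04, 2.62 and 3.15 TPM in knockdown, 2.91, 2.79 and 2.76 TPM in control oligo and 5.60, 5.03 and 5.48 TPM in sham. Both lay lower in every occlusion library, with log2 changes of −1.09 and −0.74 for control oligo and −0.92 and −0.70 for knockdown (limma adjusted p 0.000441, 0.00338, 0.00188 and 0.00584 in that order). Pcdhb9, next in abundance after Pcdhb17, had 3.91, 3.62 and 4.60 TPM in knockdown, 3.52, 3.62 and 3.16 TPM in control oligo and 4.47, 5.33 and 4.32 TPM in sham. Its knockdown and sham libraries overlapped, and neither log2 change, −0.36 with control oligo and −0.18 with knockdown, was called (adjusted p 0.0839 and 0.373).

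Pcdhb2 averaged 0.518 ± 0.0968 TPM in knockdown, 0.336 ± 0.0454 TPM in control oligo and 1.84 ± 0.178 TPM in sham (SD, n = 3 each), and was called lower in both comparisons. Pcdhb10, the gene nearest to a rise with knockdown, had 3.22, 1.79 and 2.57 TPM in sham libraries. It was called lower with control oligo (log2 −0.79, limma adjusted p 0.00721) and not with knockdown (log2 −0.32, adjusted p 0.251). Pcdhb7 had 1.86, 1.42 and 1.63 TPM in knockdown, 1.55, 1.86 and 1.95 TPM in control oligo and 3.23, 2.74 and 2.54 TPM in sham, with no overlap between occlusion and sham. Its log2 change was −0.46 with control oligo and −0.54 with knockdown (adjusted p 0.0382 and 0.0260), and these calls were lost without any 1 of control oligo library 1, the 3 sham libraries (control oligo) or knockdown library 3, sham libraries 1 and 2 (knockdown), at adjusted p 0.0571 to 0.145. Pcdhb3 had 1.33, 1.15 and 1.37 TPM in knockdown, 1.59, 1.75 and 1.14 TPM in control oligo and 2.19, 2.39 and 1.78 TPM in sham, lower in every occlusion library but not called (adjusted p 0.138 and 0.0522).

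Pcdhb21, left out of the test, was listed at 0 in all 6 occlusion libraries and had 0.188, 2.37 and 2.12 TPM in sham libraries. It shares 455 bases with Pcdhb22, which had 1.50 to 2.05 TPM in knockdown, 1.66 to 2.24 TPM in control oligo and 3.90 to 4.25 TPM in sham. Pcdhb1 and Pcdhb6 reached at most 0.213 and 1.13 TPM, both in sham libraries.

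The gamma cluster was dominated in each library by 1 gene, and that gene changed between replicates of the same group. In knockdown libraries 2, 3 and 4 it was Pcdhgb1 with 132 TPM, Pcdhga9 with 120 TPM and Pcdhgb8 with 109 TPM. In control oligo libraries 1, 2 and 3 it was Pcdhgb8 with 98.3 TPM, Pcdhgb1 with 115 TPM and Pcdhgb8 with 119 TPM. In sham libraries it was Pcdhga2 with 35.1 and 42.7 TPM and, in library 3, Pcdhgb1 with 33.4 TPM. This gene held 31.3% to 61.6% of the gamma TPM of its library. Its variable exon level was only 0.410 to 5.54, and 91.2% to 99.8% of its aligned bases lay in the constant exons. The 5 gamma transcripts that end at position 37841870, among them those of Pcdhgb1, Pcdhgb8 and Pcdhga2, held 68.6% to 69.2% of the gamma TPM in knockdown, 66.5% to 67.7% in control oligo and 39.4% to 49.5% in sham libraries.

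The tests of these genes changed with the exons that were read. Pcdhgb8, which GENCODE lists as a polymorphic pseudogene, had 0.571, 0.329 and 109 TPM in knockdown, 98.3, 0.801 and 119 TPM in control oligo and 0.641, 0.691 and 0.622 TPM in sham. Knockdown library 4 and control oligo libraries 1 and 3 stood far above the rest. It was called higher in control oligo than in sham (log2 4.07 ± 1.36, limma adjusted p 0.0272), yet its variable exon had 0.751, 0.608 and 0.964 in knockdown, 1.06, 1.06 and 0.410 in control oligo and 1.18, 1.28 and 1.15 in sham. By that exon no occlusion library was above sham and the log2 change was −0.28 (adjusted p 0.234). The TPM call was also lost without control oligo library 1 or 3 or any sham library (adjusted p 0.0562 to 0.0899). Pcdhgb1 had 132, 11.4 and 2.96 TPM in knockdown, 4.34, 115 and 17.2 TPM in control oligo and 2.98, 2.38 and 33.4 TPM in sham. Its TPM was not called in any comparison, while its variable exon had 2.96, 2.27 and 1.67 in knockdown, 1.45, 1.22 and 2.01 in control oligo and 3.10, 2.68 and 3.77 in sham, lower with control oligo at a log2 change of −0.71 (adjusted p 0.0106). Pcdhgb1 shares 28.4% of its variable bases with Pcdhga4, whose variable exon was listed at 0 in knockdown libraries 2 and 3, control oligo library 3 and sham library 3.

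Pcdhga2 had 2.07, 1.92 and 1.39 TPM in knockdown, 1.72, 2.69 and 2.75 TPM in control oligo and 35.1, 42.7 and 1.88 TPM in sham. Sham library 3 lay among the occlusion libraries. Pcdhga2 was called lower by TPM with control oligo (log2 −2.31, limma adjusted p 0.0462) and with knockdown (log2 −2.58, adjusted p 0.0380). Without any 1 of the 3 control oligo libraries or sham libraries 1 and 2 the first call was lost (adjusted p 0.0736 to 0.161). The second was lost without any 1 knockdown library or sham library 1 or 2 (adjusted p 0.0617 to 0.128). Without sham library 3 the log2 change with control oligo was −3.57. By the variable exon the values were 3.23, 2.96 and 2.26 in knockdown, 2.75, 2.90 and 2.05 in control oligo and 5.54, 3.05 and 2.87 in sham, with log2 changes of −0.40 and −0.30 that were not called.

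**Figure D3:**
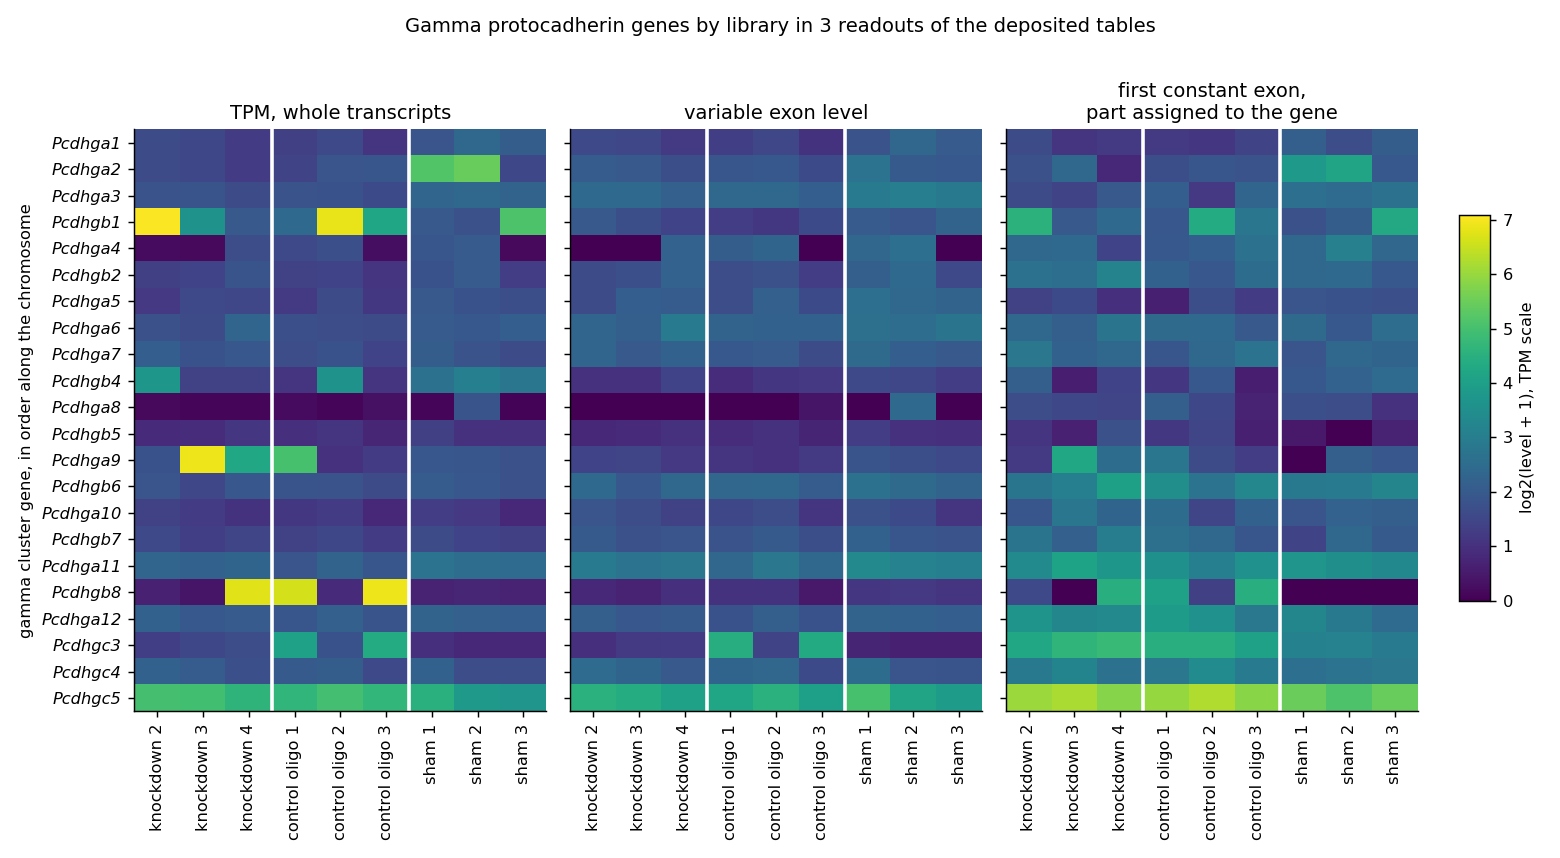
Level of each gamma gene (rows, in chromosome order) in each library (columns) on a log2(level + 1) colour scale, by TPM of whole transcripts, by variable exon and by the part of the first constant exon assigned to the gene. By TPM 1 bright gene per library moves between Pcdhgb1, Pcdhga9, Pcdhgb8 and Pcdhga2, whereas by variable exon Pcdhgc5 is highest in 7 libraries and Pcdhgc3 in control oligo libraries 1 and 3.

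Other abundant or changed gamma genes were lower after occlusion or did not pass the test. Pcdhga1 had 2.08, 1.93 and 1.38 TPM in knockdown, 1.56, 1.95 and 1.13 TPM in control oligo and 2.65, 4.20 and 3.24 TPM in sham libraries. Pcdhga3 had 2.55, 2.58 and 2.13 TPM in knockdown, 2.49, 2.43 and 2.02 TPM in control oligo and 3.94, 4.26 and 3.82 TPM in sham. In both, all occlusion libraries lay below all sham libraries. The log2 change was −0.78 and −0.60 with control oligo and −0.63 and −0.55 with knockdown (limma adjusted p 0.0101, 0.0112, 0.0267 and 0.0179 in that order). Pcdhga11 had 4.01, 3.65 and 3.85 TPM in knockdown, 2.63, 3.75 and 2.72 TPM in control oligo and 5.54, 4.79 and 4.55 TPM in sham, also with no overlap. It was called lower with control oligo (log2 −0.57, adjusted p 0.0225) and not with knockdown (log2 −0.30, adjusted p 0.130). Pcdhga7 had 3.30, 2.53 and 2.17 TPM in sham, within the range of the occlusion libraries, and was not called in either comparison. The knockdown call of Pcdhga1 was lost without sham library 2 or 3, that of Pcdhga3 without sham library 1 or 2, and the control oligo call of Pcdhga11 without control oligo library 1 or sham library 1 or 2 (adjusted p 0.0583 to 0.102).

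**Figure D4:**
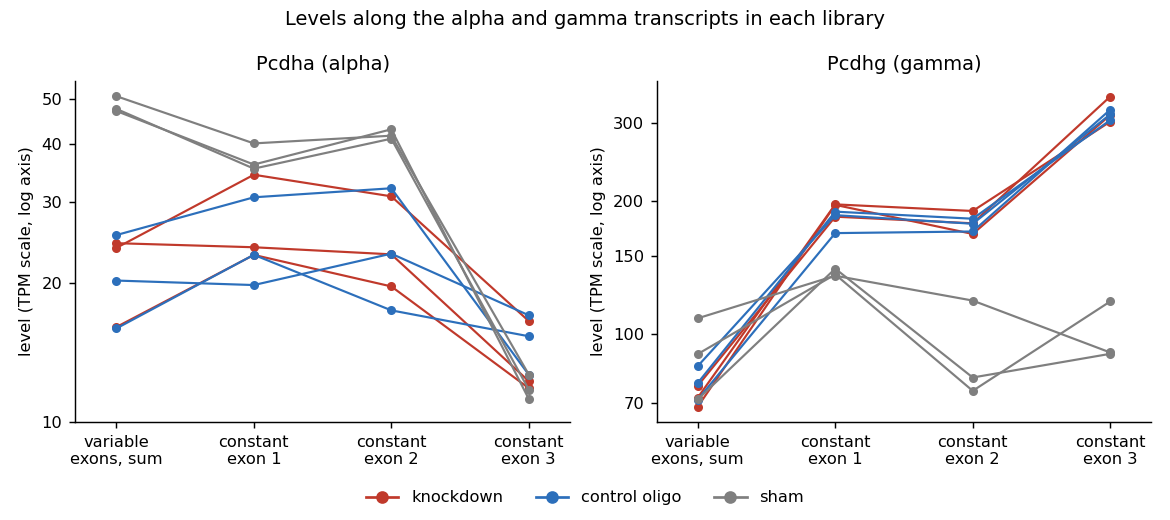
Level along the alpha (left) and gamma (right) transcripts in each library, from the summed variable exons to constant exons 1, 2 and 3, on the TPM scale with a log axis. In gamma the occlusion libraries climb to 301 to 343 at constant exon 3 while sham stays at 90.3 to 118; in alpha all libraries drop at constant exon 3, to 11.2 to 17.0.

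The levels of the shared exons showed where occlusion and sham libraries parted. Gamma constant exon 1 had 184, 196 and 196 in knockdown, 185, 189 and 169 in control oligo and 135, 136 and 140.5 in sham libraries. Gamma constant exon 3, the last exon with its long untranslated part, had 343, 312 and 301 in knockdown, 313, 304 and 321 in control oligo and 90.9, 118 and 90.3 in sham. The log2 ratio of control oligo to sham was 0.40 at exon 1, 0.95 at exon 2 and 1.65 at exon 3. Exon 3 stood at 4.41 ± 0.191 times the summed variable exons in knockdown, 4.04 ± 0.418 times in control oligo and 1.14 ± 0.263 times in sham (SD, n = 3 each). In alpha, exon 3 stood at 0.645 ± 0.125, 0.767 ± 0.240 and 0.245 ± 0.00610 times the variable exons. Other genes tilted towards the last exon as well. Over 424 long, well-covered genes the median ratio of last to first exon was 5.21 to 6.25 in knockdown and 6.28 to 8.66 in control oligo. In sham libraries it was 2.45 to 3.96. The part of this tilt in the gamma rise and in the alpha fall was not tested.

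Among the C-type genes, Pcdhgc5, which in mouse cortex is made mainly after birth, was the highest gamma gene by variable exon in 7 of 9 libraries. It had 31.3, 29.8 and 23.5 TPM in knockdown, 24.7, 30.2 and 25.0 TPM in control oligo and 21.9, 13.0 and 12.1 TPM in sham libraries. All 6 occlusion libraries lay above sham, sham library 1 being closest, and Pcdhgc5 was called higher with control oligo (log2 0.77 ± 0.23) and with knockdown (log2 0.84 ± 0.23; limma adjusted p 0.0158 and 0.0136). The calls were lost after median-ratio scaling (log2 0.13 and 0.16) and without sham library 2 or 3 (adjusted p 0.0548 to 0.0678). Its short transcripts were higher after occlusion, above all ENSMUST00000193941 of 593 nt, whose first exon lies inside that of the full-length transcript. It had 16.3, 18.1 and 12.7 TPM in knockdown, 13.4, 16.5 and 14.5 TPM in control oligo and 1.86, 2.36 and 2.24 TPM in sham. ENSMUST00000193890 of 444 nt had 2.62, 0.582 and 2.02 TPM in knockdown, 1.48, 1.15 and 1.84 TPM in control oligo and 0.347, 0.312 and 0.730 TPM in sham, with knockdown library 3 below sham library 3. The full-length transcript of 4741 nt, ENSMUST00000055935, had 12.1, 10.9 and 8.64 TPM in knockdown, 9.64, 12.3 and 8.16 TPM in control oligo and 19.3, 10.1 and 8.89 TPM in sham, with all groups overlapping.

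The variable exon of Pcdhgc5 likewise overlapped, with 22.2, 19.9 and 15.7 in knockdown, 17.4, 22.0 and 15.2 in control oligo and 31.9, 16.6 and 13.9 in sham. Neither change was called (log2 −0.11 with control oligo and −0.03 with knockdown). The part of constant exon 1 assigned to Pcdhgc5 did not, with 64.1, 72.5 and 54.7 in knockdown, 61.5, 75.4 and 56.1 in control oligo and 43.4, 34.0 and 42.3 in sham. By TPM and by constant exon 1 the occlusion libraries lay above sham, and by variable exon they did not.

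Pcdhgc3 by TPM had 0.952, 0.775 and 0.771 in sham libraries, below all knockdown and control oligo libraries. It was called higher with control oligo (log2 2.54 ± 0.58) and with knockdown (log2 0.64 ± 0.18; limma adjusted p 0.00467 and 0.0157). With knockdown the call was lost after median-ratio scaling (log2 0.25) and without sham library 2 (adjusted p 0.0515). The high values of control oligo libraries 1 and 3 came from different transcripts. In library 1 it was the full-length ENSMUST00000076807 at 15.8 TPM, and in library 3 the single-exon ENSMUST00000194447 at 19.1 TPM, which had at most 0.275 TPM elsewhere. By variable exon Pcdhgc3 had 0.943, 1.299 and 1.39 in knockdown, 20.3, 1.76 and 19.1 in control oligo and 0.663, 0.555 and 0.544 in sham. Knockdown lay below control oligo and above sham, with a log2 change of −2.26 over control oligo (unadjusted limma p 0.0234, adjusted p 1). By the part of constant exon 1 assigned to it, Pcdhgc3 had 17.6, 24.0 and 26.8 in knockdown, 21.3, 21.4 and 15.7 in control oligo and 7.75, 7.85 and 6.74 in sham. Here knockdown and control oligo overlapped and both lay above sham. TPM and variable exon thus separated knockdown from control oligo, and constant exon 1 did not.

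Pcdhgc4, which mouse interneurons need to survive early life, had 3.61, 3.16 and 2.34 TPM in knockdown, 3.02, 3.28 and 1.94 TPM in control oligo and 3.61, 2.20 and 2.19 TPM in sham. All groups overlapped and no comparison called it (log2 0.11, 0.03 and 0.15 for knockdown over control oligo, control oligo over sham and knockdown over sham). The alpha C-type genes fell by TPM. Pcdhac2, which serotonin neurons of the mouse use to space their axons, had 7.83, 6.73 and 4.63 TPM in knockdown, 5.39, 8.21 and 4.12 TPM in control oligo and 12.9, 12.0 and 11.9 TPM in sham. Pcdhac1 had 0.896, 0.694 and 0.480 TPM in knockdown, 0.907, 0.500 and 0.730 TPM in control oligo and 1.58, 1.51 and 1.38 TPM in sham. Both were lower in every occlusion library, with log2 changes of −0.99 and −0.55 for control oligo and −0.87 and −0.57 for knockdown (limma adjusted p 0.00472, 0.0182, 0.00517 and 0.0250 in that order). The calls of Pcdhac1 were lost without sham library 1 or 2, and with knockdown also without knockdown library 3 (adjusted p 0.0507 to 0.0741). By variable exon both genes also lay below sham in every occlusion library. By the part of constant exon 1 assigned to Pcdhac2, values were 13.6, 6.69 and 5.71 in knockdown, 6.79, 12.0 and 5.57 in control oligo. Sham had 12.4, 12.1 and 13.7, so knockdown library 2 lay within its range. Pcdhac1 had 0.403 to 2.77 in knockdown, 1.07 to 1.83 in control oligo and 1.07 to 3.27 in sham by that exon, with overlap.

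**Figure D5:**
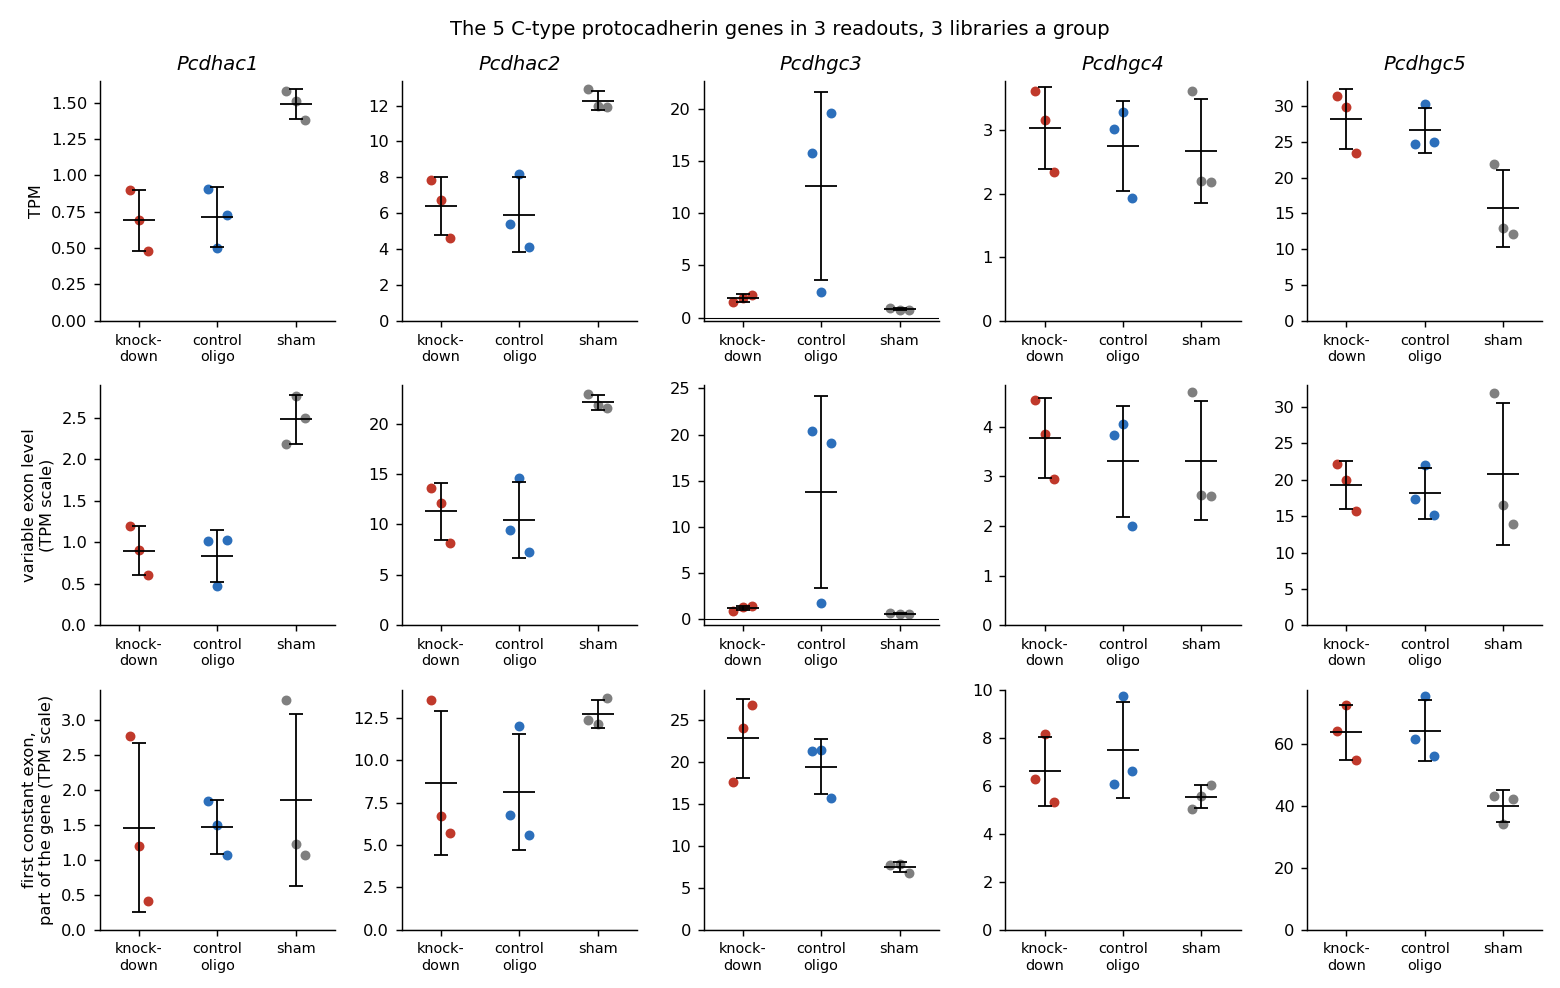
The 5 C-type genes in the 9 libraries by TPM, by variable exon level and by the part of constant exon 1 assigned to the gene (all on the TPM scale); points are libraries, bars the mean and SD of 3. Pcdhgc3 with knockdown lies below control oligo by TPM (1.48 to 2.18 against 2.49 to 19.6) and by variable exon (0.943 to 1.39 against 1.76 to 20.3) and overlaps it by constant exon 1 (17.6 to 26.8 against 15.7 to 21.4), while Pcdhac2 lies below sham in the upper and middle rows.

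The median spread among replicates was lowest in sham, where members also had more reads. The median alpha gene had 366.5 to 381 estimated reads in sham and 60.5 to 100.1 in occlusion libraries. The part of read depth in this spread was not tested. The median coefficient of variation of TPM among alpha genes was 40.7% in knockdown, 25.9% in control oligo and 15.0% in sham, and among beta genes 24.4%, 15.1% and 12.1% in the same order. Among gamma genes it was 21.2%, 25.1% and 19.6%. Single gamma genes varied widely in all groups, up to 171% in knockdown (Pcdhgb8), 155% in control oligo (Pcdhga9) and 160% in sham (Pcdhga8). The widest beta genes reached 173% in knockdown (Pcdhb1), 87.1% in control oligo (Pcdhb19) and 115% in sham (Pcdhb1).

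The genes around the protocadherins were read from lists of known regulators, partners and relatives. Their counts stand against all genes, of which 0.0117% were called with knockdown over control oligo, 52.6% were higher and 12.8% lower with control oligo over sham, and 52.7% higher and 12.5% lower with knockdown over sham. After median-ratio scaling 26.1% of all genes were higher and 29.2% lower with control oligo, and 22.7% higher and 27.1% lower with knockdown. Among 19 tested regulators of promoter choice and chromatin, 0 were called with knockdown over control oligo, 1 was higher and 5 lower with control oligo over sham, and 4 were higher and 6 lower with knockdown over sham. Median-ratio scaling gave 1 higher and 15 lower with control oligo, and 1 higher and 14 lower with knockdown. Ctcf, which with cohesin loops enhancers to the chosen promoters, had 40.2, 39.2 and 38.6 TPM in knockdown, 31.1, 41.2 and 25.9 TPM in control oligo and 24.8, 24.9 and 22.4 TPM in sham libraries. Its log2 change over sham with knockdown was 0.69 (limma adjusted p 0.00145) and −0.01 after median-ratio scaling. Smchd1, which in mouse represses clustered protocadherins, averaged 11.5 ± 2.35 TPM in knockdown, 9.48 ± 2.07 TPM in control oligo and 17.4 ± 2.84 TPM in sham (SD, n = 3 each), and fell with control oligo (log2 −0.82, adjusted p 0.00610; −1.45 after median-ratio scaling). Stag1, a cohesin subunit, fell with control oligo too (log2 −1.09, adjusted p 0.00184), and Trim28, a co-repressor that recruits Setdb1, rose (log2 1.09, adjusted p 0.000645; 0.43 after median-ratio scaling).

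Among 19 tested partners at the membrane and in the cell, 12 were higher and 3 lower with control oligo over sham and 11 higher and 2 lower with knockdown over sham. Median-ratio scaling gave 5 higher and 7 lower with control oligo, and 6 in each direction with knockdown. Nlgn1, a postsynaptic adhesion protein that gamma protocadherins bind in mouse, had 15.4, 13.5 and 8.87 TPM in knockdown, 10.2, 7.35 and 5.55 TPM in control oligo and 49.0, 54.8 and 42.7 TPM in sham. It fell with control oligo by log2 −2.55 (limma adjusted p 3.11e-05). Wasf1, a WAVE complex subunit that binds the tail of many protocadherins, rose by log2 1.65 with control oligo (adjusted p 8.4e-05). Of the 7 genes for ADAM10 and gamma-secretase, which cut protocadherins at the membrane, 5 were higher and 0 lower in each comparison with sham, Aph1a by log2 1.65 and Psenen by log2 1.34 with control oligo (adjusted p 0.000180 and 0.000131). Once scaled by median ratios, 4 of them stood higher and 1 lower with control oligo, Aph1a by log2 1.03 and Psenen by log2 0.69 higher and Adam10 lower at log2 −0.63 (adjusted p 0.00136, 0.0177 and 0.00145). With knockdown 4 were then higher and 0 lower.

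The non-clustered protocadherins, which stand alone in the genome, and other adhesion genes of neurons also held falls. Of 11 tested non-clustered protocadherins, 6 were called lower and 2 higher in each comparison with sham. Scaling by median ratios gave 9 lower and 1 higher with control oligo, and 9 lower and 0 higher with knockdown. Pcdh7 had 12.9, 9.97 and 8.36 TPM in knockdown, 17.6, 17.2 and 16.6 TPM in control oligo and 95.3, 94.4 and 89.5 TPM in sham libraries. The groups did not overlap, with a log2 change of −2.37 with control oligo and −3.06 with knockdown over sham (limma adjusted p 2.32e-06 and 8.71e-06), and of −0.69 with knockdown over control oligo (unadjusted p 0.0128, adjusted p 1). Of 22 tested cadherins and related genes, 7 were lower and 4 higher with control oligo over sham and 9 lower and 3 higher with knockdown over sham, with Fat3 at log2 −2.09 and Cdh12 at −1.86 with control oligo. Here scaling gave 15 lower and 1 higher with control oligo, and 17 lower and 1 higher with knockdown.

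Markers of the cell types in cortex were read beside these lists. Of 8 neuronal markers tested, 5 were higher and 1 lower with control oligo over sham, and 1 higher and 3 lower once scaled by median ratios. With knockdown over sham 4 were higher and 0 lower, and again 1 higher and 3 lower after scaling. Neutrophil markers summed to 72.9 to 1387 TPM in knockdown, 30.6 to 334 TPM in control oligo and 2.59 to 7.59 TPM in sham. Astrocyte markers summed to 906 to 2287 TPM in knockdown, 1097 to 1342 TPM in control oligo and 675 to 770 TPM in sham. Microglial markers summed to 220 to 449 TPM in knockdown, 209 to 237 TPM in control oligo and 117 to 139 TPM in sham. The summed markers of oligodendrocytes, endothelial cells, meninges and choroid plexus were likewise higher in every occlusion library than in any sham library. Those of oligodendrocyte precursors were not. They summed to 39.7 to 45.1 TPM in knockdown, 28.5 to 52.7 TPM in control oligo and 31.7 to 33.6 TPM in sham. These sums are not scaled. Median-ratio scaled log2 changes over sham had medians, with control oligo and with knockdown, of −0.02 and −0.07 for astrocyte markers. They were 0.20 and 0.48 for microglial, 0.29 and 0.33 for oligodendrocyte and 0.71 and 0.84 for endothelial markers. For oligodendrocyte precursors they were −0.45 and −0.61. For meninges they were 0.26 and 0.52, for choroid plexus 0.62 and 1.85 over 3 tested genes, and for neutrophils 3.93 and 4.34. Knockdown library 4 stood apart, with the highest sum for astrocytes, microglia, endothelial cells, meninges and neutrophils. Its endothelial markers summed to 448 TPM and its meningeal markers to 152 TPM, against at most 229 and 41.2 TPM in the other knockdown libraries, 245 and 56.0 TPM in control oligo and 107 and 19.7 TPM in sham. Striatal markers summed to 115 to 239 TPM in knockdown, 189 to 206 TPM in control oligo and 61.3 to 76.3 TPM in sham. After median-ratio scaling their median log2 change over sham was 0.46 with control oligo and 0.52 with knockdown. Of 6 tested, 3 were then higher and 1 lower with control oligo, and 3 higher and 2 lower with knockdown. The part of these cell types and of striatal tissue in the protocadherin differences was not tested.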

How the data were processed

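RNA of mouse cortex was sequenced in 9 libraries, 3 per group. Per the labels' protocols, the occlusion libraries were poly(A)-selected and sequenced in pairs; these details are not given for sham in the sources used here. Per the submitters' processing notes, the authors used HISAT2 2.0 and StringTie 1.3 on GRCm38/mm10. Per the file headers, StringTie ran against a merged annotation with no strand option. The deposited tables hold TPM, FPKM and coverage per transcript and coverage per exon. No read counts were used, so reads per member were estimated from coverage.

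TPM was summed per gene. Genes with at least 1 TPM in at least 3 of 9 libraries were fitted with limma 3.58.1 in R 4.3.3, using its trend option on log2(TPM + 1), with the 6 libraries of each comparison and Benjamini-Hochberg adjustment over 17080 genes and a threshold of 0.05. Fold changes on this scale understate those of low genes. Cluster sums and exon levels are descriptions without a test. The exon levels come from the deposited coverage, put on the TPM scale of each library. The fit was tested on simulated data. Python 3.11.15, pandas 2.3.3, NumPy 2.4.6 and matplotlib 3.10.9 did the rest.

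Members described in full were the 3 most abundant of each cluster, the 5 C-type genes and, per comparison and cluster, up to 2 with the smallest p in each direction; from each further list up to 3 with the smallest p per comparison could be named. Members and lists were chosen with earlier results of these data known. The labels do not say whether libraries come from separate animals, so p-values measure the spread between these libraries only. Replicate numbers were not used to pair libraries in the main fit. Alternatives were median-ratio scaling, TPM over nuclear protein-coding genes, FPKM, a pseudocount of 0.1, no filter, 1 fit over all 9 libraries, a replicate block, the variable exon level and leaving out each library.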

Additional observations from a re-analysis of the deposited data

How the results depend on the processing

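No alternative gave a protocadherin call between knockdown and control oligo, in 0 of 50 members or of the 44 to 58 tested otherwise. Against sham, median-ratio scaling gave 41 calls for control oligo and 36 for knockdown, against 28 and 24. TPM over nuclear protein-coding genes gave 44 and 41 calls. The variable exon level with median-ratio scaling, chosen after seeing the data like all variable exon values, gave 48 and 44. Leaving out each library gave 21 to 29 and 17 to 25 calls. A replicate block gave 25 and 18 calls, and 0 for knockdown over control oligo. Same-numbered libraries correlated at 0.23 and 0.07 in knockdown and control oligo and at −0.03, −0.07 and 0.12 in control oligo and sham. In knockdown and sham the values were −0.06 and 0.07. Knockdown library 4 and control oligo library 1 reached 0.29. Such pairs are too few to tell whether the numbers pair libraries.

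The log2 ratio of the summed alpha cluster to sham was −1.38, −1.52 and −1.32 for control oligo and −1.47, −1.64 and −1.38 for knockdown under median-ratio scaling, nuclear protein-coding TPM and FPKM. By variable exon it was −1.24 and −1.18, and with median-ratio scaling added −1.92 and −1.91. For beta the same 3 scalings gave −1.94, −2.08 and −1.87 for control oligo and −1.84, −2.01 and −1.74 for knockdown, and the variable exon level with median-ratio scaling −1.94 and −1.86. For gamma they gave 0.31, 0.16 and 0.37 for control oligo and 0.22, 0.048 and 0.31 for knockdown. The gamma ratio turned negative by variable exon, at −0.21 and −0.32, and at −0.87 and −1.03 with median-ratio scaling. Between knockdown and control oligo the gamma ratio was −0.12, −0.11 and −0.16 under nuclear protein-coding TPM, variable exon level and variable exon level with median-ratio scaling. Leaving out each library kept the sign of every ratio to sham, at −0.77 to −0.62, −1.31 to −1.24 and 0.86 to 1.02 for control oligo (alpha, beta, gamma) and −0.85 to −0.60, −1.16 to −1.05 and 0.84 to 0.99 for knockdown. For knockdown over control oligo the ranges were −0.13 to 0.11, 0.11 to 0.22 and −0.07 to 0.01.

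Some single genes changed sign against sham. With control oligo, Pcdhgb1 was −0.71 and −1.19, Pcdhgb8 −0.28 and −0.65 and Pcdhgc5 −0.11 and −0.75 by variable exon without and with median-ratio scaling. With knockdown and both, Pcdhgb1 was −0.90, Pcdhgb8 −0.69, Pcdhga7 −0.59 and Pcdhgc5 −0.72, and Pcdhgc5 was −0.032 by variable exon alone. Under nuclear protein-coding TPM Pcdhga7 was −0.67, Pcdhgc5 −0.011 and Ctcf −0.18 with knockdown, and Ctcf was −0.0093 under median-ratio scaling. The cause was not tested. Among the named members, 322 of the alternatives with control oligo and 327 with knockdown kept their side of the threshold, 45 and 35 lost the call and 27 and 31 gained it. Values called in neither setting changed sign in 11 and 22 of them, and in 33 of 400 for knockdown over control oligo.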

Other observations

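Gm38182, a processed transcript inside the gamma constant region that is no member, had 12.2, 14.4 and 24.3 TPM in knockdown, 16.5, 13.5 and 21.9 TPM in control oligo and 9.88, 1.21 and 6.84 TPM in sham libraries. Every occlusion library was above every sham library. Gm36858, an unprocessed pseudogene of the same locus, had 0.0114, 0 and 0 TPM in knockdown, 0.0220, 0.0384 and 0.0385 TPM in control oligo and 0.620, 0.732 and 0.544 TPM in sham.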
